A study of Mus musculus with 7 samples.

Results

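Lhx2 and 5 genes whose products assemble with LIM domain transcription factors, Ldb1, Ldb2, Ssbp2, Ssbp3 and Lmo4, were examined for open chromatin regions (OCRs) in HPC7 cells. The members were named as a list of genes, and their OCRs were all peaks that overlapped the gene body or the 30 kb on either side of it (mm10, GENCODE M21). Peaks of the libraries that overlapped by 1 bp or more were joined, which gave 126 OCRs for the 6 genes out of 144931 in the whole data set. The data are peak lists of 7 bulk ATAC-seq libraries, HPC7-1, HPC7-2 and HPC7-4 to HPC7-8, and HPC7-3 was not used here. The labels put all 7 libraries in 1 group of HPC7 cells, kept in medium that held mouse stem cell factor at 50 ng/ml, and the study describes them as independent culture batches of the same line. The peak names carry the prefix VD in 3 libraries and EtOH in 4, which neither the labels nor the methods explain, and the prefixes were not used as conditions.

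HPC7 is a mouse hematopoietic progenitor line that was derived from embryonic stem cells with the help of introduced Lhx2. Lhx2 is a LIM-homeodomain transcription factor: its homeodomain binds DNA, and its pair of LIM domains binds partner proteins. The partners Ldb1 and Ldb2 are adaptors that dimerise and so hold LIM proteins together, and in blood cells Ldb1 joins Lmo2, Tal1, an E protein and a GATA factor in a complex on enhancers. Ssbp2 and Ssbp3 bind the Ldb adaptors and protect them from degradation, and Lmo4 is a LIM-only protein that occupies the same adaptors without binding DNA itself.

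Tn5 transposase cuts accessible DNA and adds sequencing adapters to it in ATAC-seq, so reads accumulate in open chromatin. Each deposited peak has a fold enrichment, the pileup of reads at its summit relative to the background of its library. The lists held between 84593 and 132852 peaks. The background worked out from the fold enrichments was between 4.44 and 7.45 reads in 6 libraries and 20.4 reads in HPC7-1, so HPC7-1 was the deepest. To compare genes without scaling libraries to each other, each peak was given its percentile of fold enrichment among all peaks of its own library. Over all 21938 protein-coding genes, 55.9% had a promoter peak in all 7 libraries. Of the hematopoietic progenitor markers Kit, Cd34, Gata2, Runx1, Spi1 and Ptprc, 6 of 6 had one in all 7. Their mean percentiles were between 83.7 and 96.0. Of 11 markers of T cells, B cells, fibroblasts, embryonic stem cells and neurons, 8 had a promoter peak in no library, Col1a2 and Nanog among them, and 3 had one in all 7 (Col1a1, Pou5f1 and Rbfox3), at mean percentiles between 36.7 and 71.7.

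The sequences on which the Lhx2 results turn are those where its exons meet its introns, because several peaks began and ended there. They were read from GRCm38.p6 on the + strand, with exon bases in capitals and intron bases in lower case. Exons 2 and 4 are shown whole with 20 bases of intron on either side (chr2:38353291-38353533 and chr2:38359878-38360123), and for exons 3 and 5, which are longer, the edges are shown (chr2:38354419-38354478, chr2:38354823-38354882 and chr2:38368812-38368871).
Lhx2 exon 2: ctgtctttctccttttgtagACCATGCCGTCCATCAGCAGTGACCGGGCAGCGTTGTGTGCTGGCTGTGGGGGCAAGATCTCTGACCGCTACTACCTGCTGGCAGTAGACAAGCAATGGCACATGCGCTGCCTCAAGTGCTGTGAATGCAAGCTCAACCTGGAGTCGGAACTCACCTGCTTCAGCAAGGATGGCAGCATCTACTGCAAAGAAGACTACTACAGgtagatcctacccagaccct
Lhx2 exon 3 start: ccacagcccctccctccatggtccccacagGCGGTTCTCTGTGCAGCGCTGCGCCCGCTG
Lhx2 exon 3 end: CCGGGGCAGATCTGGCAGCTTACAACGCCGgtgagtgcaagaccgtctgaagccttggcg
Lhx2 exon 4: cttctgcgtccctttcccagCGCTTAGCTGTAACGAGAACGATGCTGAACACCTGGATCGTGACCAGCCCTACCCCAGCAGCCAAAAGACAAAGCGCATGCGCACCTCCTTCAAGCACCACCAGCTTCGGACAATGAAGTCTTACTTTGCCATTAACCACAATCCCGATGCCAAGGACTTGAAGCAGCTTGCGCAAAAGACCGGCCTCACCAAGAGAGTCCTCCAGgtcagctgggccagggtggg
Lhx2 exon 5 start: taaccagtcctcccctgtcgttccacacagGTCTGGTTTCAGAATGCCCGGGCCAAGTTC

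Lhx2 lies on the + strand at chr2:38339281-38369733, with 7 annotated transcript starts. Its window held 11 OCRs, 9 of them in all 7 libraries. By class, 4 lay within 1 kb of a start of Lhx2 (own promoter), 2 were exonic, 4 were in the flanks, and 1 lay at a start of the annotated gene Gm27197 inside the Lhx2 body. The strongest OCR was at the downstream start at 38350759, from which the transcript with the longest coding sequence begins, and covered chr2:38350398-38352014. Taking the libraries in the order of their names from HPC7-1 to HPC7-8, its fold enrichment was 42.3, 31.1, 29.9, 45.1, 26.3, 31.9 and 48.1. These values placed it at percentile 85.7 ± 2.54 of its library (SD, n = 7). The OCR over the first annotated start, chr2:38338748-38339905, was much weaker, with a fold enrichment of 6.004 ± 0.983 and a percentile of 46.1 ± 9.10 (SD, n = 7), and no library had a value there as high as the lowest at the downstream start. The remaining own-promoter OCRs were the OCRs over exons 2 and 3, which met the rule only because starts of a retained-intron transcript and of a coding transcript outside GENCODE's basic set are annotated at 38353802 and 38352532.

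**Figure D1:**
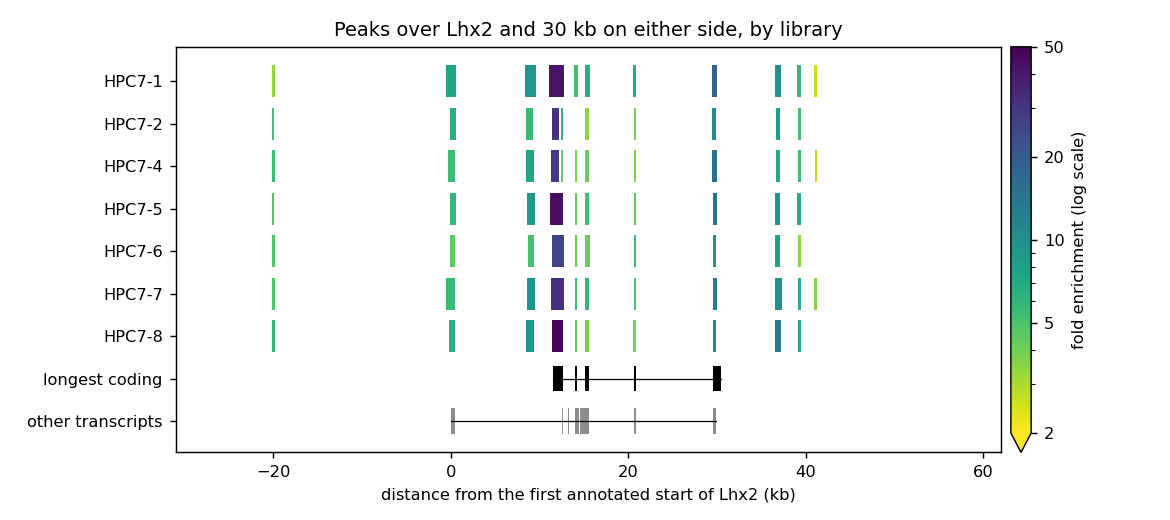
Peaks over Lhx2 and the 30 kb on either side in each of the 7 libraries, by distance from the first annotated start in kb. Bars span the peaks and are coloured by fold enrichment on a log scale, and the rows at the bottom show the exons of the transcript with the longest coding sequence and of the other transcripts. The darkest bars stand at the downstream start, and narrow bars stand over exons 2, 3, 4 and 5.

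Each of the 4 exons downstream of that start carried its own OCR. Exon 2 (chr2:38353311-38353513, 203 bp) had a peak in 6 libraries and none in HPC7-2, and exons 3 (chr2:38354449-38354852, 404 bp), 4 (chr2:38359898-38360103, 206 bp) and 5 (chr2:38368842-38369733, 892 bp) had one in all 7. Exons 2, 3 and 4 are coding throughout, and exon 5 codes up to 38369126 and ends in the 3′ UTR. The summit lay inside the exon in every one of these peaks.

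The peaks over exons 2 to 4 were weak. In the same order of libraries, the fold enrichment over exon 3 was 6.74, 3.49, 4.26, 5.22, 4.22, 5.97 and 3.79. These correspond to 143 reads at the summit in HPC7-1 and between 18 and 40 in the other 6 libraries. Over exon 2 it was 4.58 ± 0.663 (SD, n = 6), between 3.79 and 5.53, and over exon 4 it was 4.83 ± 1.18 (SD, n = 7), between 3.67 and 6.93. The mean percentiles of these 3 OCRs were alike, 34.4 ± 11.7, 34.0 ± 15.8 and 34.5 ± 15.6, and HPC7-1 was the highest library in each. With every peak list shortened to equal length, strongest peaks first, they were 21.1, 24.3 and 23.8. The peak over exon 5 was stronger, with a fold enrichment of 19, 10.7, 15.6, 14.8, 9.54, 13.3 and 11.5 from HPC7-1 to HPC7-8. It exceeded the peaks over exons 3 and 4 in all 7 libraries and the peak over exon 2 in the 6 libraries that had one, with no overlap of the ranges, and its percentile was 70.4 ± 5.94 (SD, n = 7).

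The edges of the peaks over exons 2 to 4 coincided with the splice sites in many libraries. Over exon 2 the peak ran from 1 bp before the exon to 1 bp before its end in HPC7-4, from 1 bp before the exon to its last base in HPC7-8, and from 1 bp before it to 4 bp short of its end in HPC7-6. Over exon 3 the peak began at the first base of the exon in HPC7-2, HPC7-4 and HPC7-5 and ended 5, 7 and 5 bp short of its last base. Over exon 4 the peak began 3 bp inside the exon in HPC7-4, HPC7-5, HPC7-6 and HPC7-7 and 4 bp inside it in HPC7-2, and it ended 2 bp short of the last base in HPC7-4 and HPC7-5.
On the start side, peaks of HPC7-1, the deepest library, reached furthest out, 104 bp before exon 2, 85 bp before exon 3 and 78 bp before exon 4. On the end side they ran 67, 79 and 48 bp past these exons, and the peak of HPC7-6 ran 134 bp past exon 3. The narrowest peak in any list was 200 bp, so over exons 2 and 4 a peak could hardly be narrower than the exon.

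**Figure D2:**
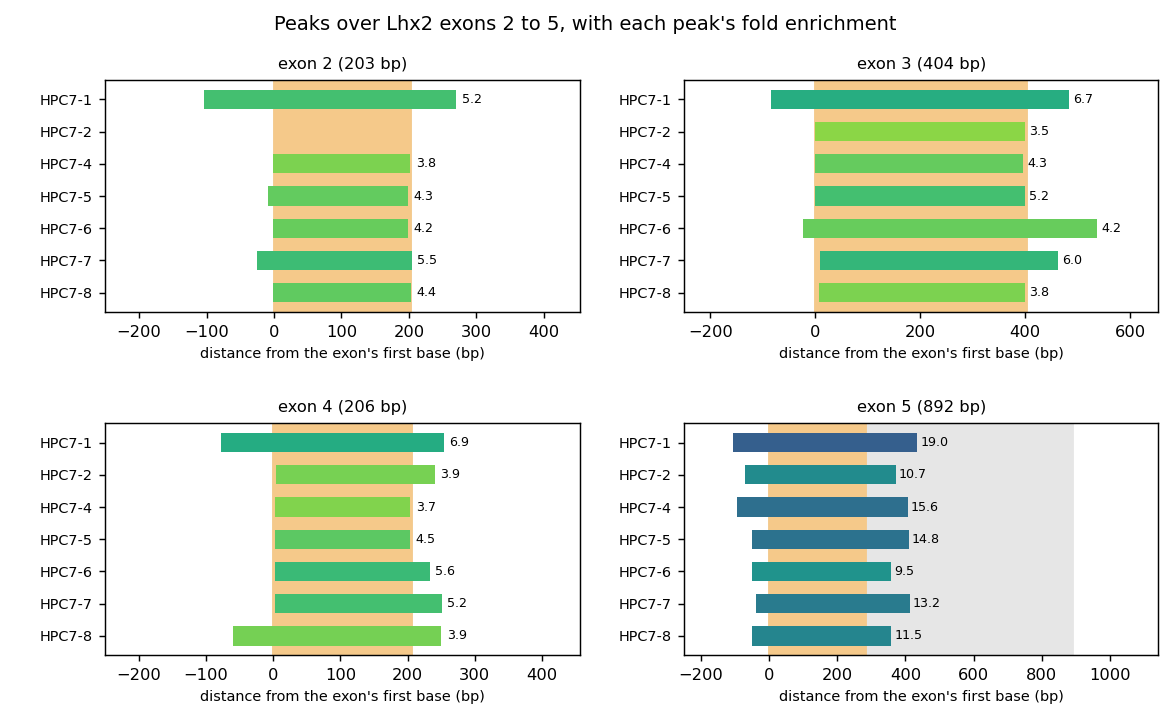
Peaks over Lhx2 exons 2 to 5 in each library, by distance in bp from the first base of the exon, coloured by fold enrichment on the scale of the locus map, with the value printed beside each bar. The coding part of each exon is shaded orange and the 3′ UTR grey. Over exons 2, 3 and 4 many bars start and stop with the shading, over exon 5 all 7 bars stop within the UTR, and HPC7-2 has no bar over exon 2.

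How often peaks follow exon edges was counted over all protein-coding genes, for 169330 internal exons of the transcripts with the longest coding sequence. The measure was chosen after the Lhx2 peaks had been seen, so it describes them and does not test them. A peak with both edges within 10 bp of the exon edges was found in 10 of the 20 combinations of an Lhx2 internal exon and a library that had a peak. Over all genes this was the case in 30 of 74689 such combinations (0.0402%), the 10 of Lhx2 included, and no other gene had more than 1. Asking for such edges in 4 or more libraries left 2 internal exons, exons 2 and 3 of Lhx2, which is 0.00118% of all internal exons and 0.0201% of the 9970 with a peak in 4 or more libraries. That count of 2 depends on the settings: it was 0 within 5 bp, 4 within 25 bp, and 0 without HPC7-4, HPC7-5 or HPC7-8. Of the 49 internal exons of Ldb1, Ldb2, Ssbp2, Ssbp3 and Lmo4, 3 had a peak in any library and none had a peak with both edges within 10 bp in any library.

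The first and last exons of Lhx2 were no internal exons, and their peaks were read separately. Over exon 1, HPC7-2 and HPC7-4 had a peak of their own beside the strong promoter peak, at chr2:38351671-38351969 and chr2:38351689-38351980, with a fold enrichment of 6.25 and 4.26. Both covered the coding part of exon 1 (chr2:38351774-38351893), and in the other 5 libraries that stretch lay under the promoter peak. Over exon 5 the peaks began between 107 and 40 bp before the exon and ended between 74 and 150 bp past the last coding base before the stop codon, 457 to 533 bp short of the end of the annotated UTR. In every library a peak thus lay over coding bases of all 5 exons of Lhx2, save exon 2 in HPC7-2.

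Away from its starts, peaks covered Lhx2 exons far more than its introns. In the transcript with the longest coding sequence, after bases within 1 kb of any Lhx2 start were left out, peaks covered 56.0% ± 2.69 of the exonic bases and 1.11% ± 0.628 of the intronic bases (SD, n = 7). The exonic share was between 53.1% and 60.2% and the intronic share between 0.37% and 2.26%, so the ranges did not overlap. The difference was 54.9 ± 2.57 percentage points (SD, n = 7) and positive in 7 of 7 libraries (exact two-sided sign-flip permutation test, p = 0.0156, the smallest p that 7 libraries allow). This measure rests on exons 4 and 5 and the last bases of exon 3, with 1148 exonic and 13783 intronic bases, because the annotated starts near exons 2 and 3 take out exon 2 and most of exon 3. With the starts of basic coding transcripts alone left out, a choice made after the values were seen, all of exons 2 to 5 and the end of exon 1 entered and the difference was 69.0 ± 4.62 percentage points. Among 16097 protein-coding genes with 4 or more exons the median difference was -0.18 percentage points, and Lhx2 stood at percentile 99.5, with 87 genes above it. The difference was -35.6 for Ldb1, -14.6 for Lmo4, -9.42 for Ssbp3, 0 for Ldb2, which had no peak, and 17.5 for Ssbp2.

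**Figure D3:**
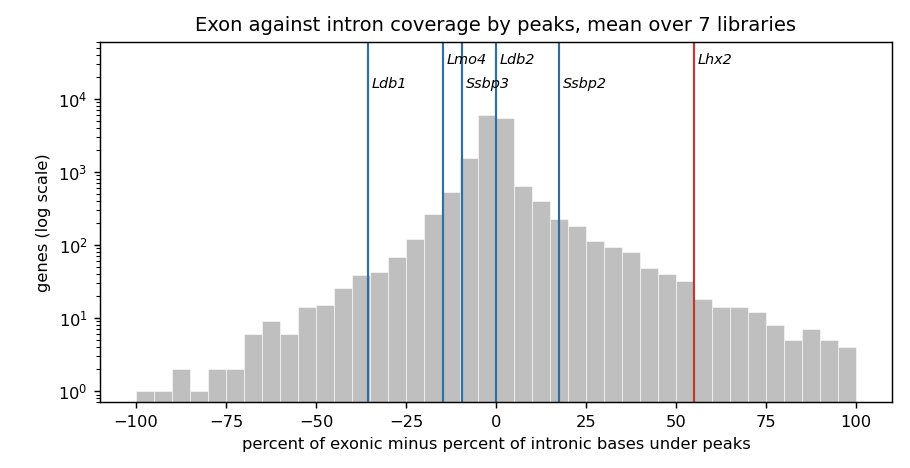
Number of protein-coding genes with 4 or more exons (log scale) by the percent of exonic minus the percent of intronic bases under peaks, mean over 7 libraries, away from transcript starts. Lines mark the 6 genes, and Lhx2 stands at 54.9 in the right tail, with Ssbp2 at 17.5 and the other 4 at or below 0.

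A stricter count asked for every exon of a gene under a peak with no peak summit in an intron, in the transcript with the longest coding sequence. It leaves out the OCR at the start of Gm27197, in all 7 libraries, which lies in the first intron of the Lhx2 transcript that begins furthest upstream. The count held for Lhx2 in 6 of 7 libraries and for none of the other 5 genes in any library. In 6 or more libraries it held for 48 of 16434 genes (0.292%), whose median transcript length was 2.24 kb. Lhx2, at 18.98 kb, was the longest of them, followed by Ntn3 at 5.68 kb and Tubb5 at 4.39 kb. In all 7 libraries it held for 35 genes, up to 5.68 kb long, of which AI413582, Aprt, Cuta, Gadd45g and Gm10800 had 100% of their exonic bases under peaks and were between 0.755 and 2.25 kb long.

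A cDNA copy of a gene joins its exons without the introns, and reads from it align to the exons of the gene. The reference genome was therefore searched on both strands for the 4 exon junctions of Lhx2, as the last 20 bases of an exon (lower case) followed by the first 20 of the next (capitals). These are the sequences that a spliced copy would hold and the gene itself does not.
Lhx2 junction 1-2: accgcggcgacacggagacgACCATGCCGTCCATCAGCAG
Lhx2 junction 2-3: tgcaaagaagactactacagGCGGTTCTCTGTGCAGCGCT
Lhx2 junction 3-4: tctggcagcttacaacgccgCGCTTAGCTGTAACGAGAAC
Lhx2 junction 4-5: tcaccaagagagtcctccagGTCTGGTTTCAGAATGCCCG
None of the 4 occurred in GRCm38.p6, and the coding parts of exons 1 to 5 each occurred 1 time. So the reference holds no spliced copy of Lhx2 with exactly these junctions. A copy with changed bases would not have been found, and the search does not bear on what HPC7 cells carry. Whether an integrated Lhx2 cDNA in HPC7 gave the exon peaks was not tested, since peak lists hold no reads that cross a junction. Reads of the endogenous gene and of such a copy cannot be told apart within an exon.

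Beyond the gene body, Lhx2 had 4 flanking OCRs. The strongest was at chr2:38375772-38376579, downstream of the gene, with a fold enrichment between 7.34 and 13.4 and a percentile of 61.8 ± 6.59 (SD, n = 7). Next was chr2:38378325-38378767, at percentile 43.9 ± 13.7 (SD, n = 7). An upstream OCR at chr2:38319101-38319524 was also in all 7 libraries, and chr2:38380190-38380582 was in 3. The OCR at the start of Gm27197, chr2:38347661-38348856, lay upstream of the strong promoter OCR and had a percentile of 55.4 ± 10.1 (SD, n = 7).

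The promoters of Lhx2 and its partners differed in strength. For each gene the strongest peak within 1 kb of any of its starts was taken. Of the 6 genes, 5 had one in all 7 libraries, where the share over all 21938 protein-coding genes was 55.9%. Ssbp3 has 17 annotated starts, Ssbp2 10, Ldb1 8, and Lhx2, Ldb2 and Lmo4 7 each. Genes with more starts had more places for a strong peak, and the values were not adjusted for this. The percentile of the Lhx2 promoter was between 83.3 and 89.2, with a median of 85.6. That of Ldb1 was between 93.4 and 96.7 (median 94.0), of Lmo4 between 93.2 and 95.9 (median 95.01), of Ssbp3 between 94.2 and 97.1 (median 95.8), and of Ssbp2 between 96.8 and 98.6 (median 97.8). Ldb2 had no promoter peak in any library and was given 0. The range of Lhx2 did not overlap that of any partner. In fold enrichment, Lhx2 had 36.4 ± 8.55, Lmo4 90.9 ± 16.9, Ldb1 92.0 ± 19.6, Ssbp3 104.8 ± 21.4 and Ssbp2 137.1 ± 23.6 (SD, n = 7).

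**Figure D4:**
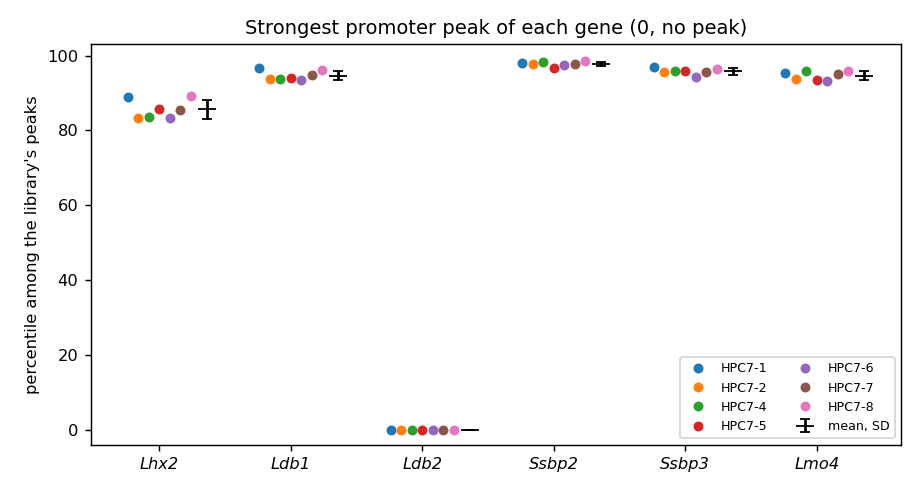
Percentile of fold enrichment of the strongest promoter peak of each gene, 1 point per library, with the mean and SD at the right of each group. Ldb2 stands at 0 in all 7 libraries, Lhx2 between 83.3 and 89.2, and the other 4 genes above 93.

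Of the 15 pairs of genes, 14 differed in promoter percentile (exact two-sided sign-flip permutation test over 7 libraries, Benjamini-Hochberg over 15 pairs, adjusted p of at most 0.0335). The 5 pairs with Ldb2 among them compare a peak with none, so their outcome was fixed before the test. The Lhx2 promoter was lower than that of Lmo4 by 8.95 ± 2.20 percentile points, of Ldb1 by 8.997 ± 1.35, of Ssbp3 by 10.1 ± 1.91 and of Ssbp2 by 12.1 ± 2.43 (SD, n = 7), in 7 of 7 libraries each (exact permutation test, adjusted p = 0.018). Ssbp2 was above its paralog Ssbp3 by 2.01 ± 0.841 points in 7 of 7 libraries (exact permutation test, adjusted p = 0.018). Ssbp3 was above Lmo4 by 1.18 ± 0.833 points in 6 of 7 libraries (exact permutation test, adjusted p = 0.0335), and with 1 library left out its adjusted p was 0.067, or 0.0335 without HPC7-4. Ldb1 and Lmo4 were not told apart, at a difference of 0.0478 ± 1.10 points with Ldb1 higher in 4 of 7 libraries (exact permutation test, adjusted p = 0.906).

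Set among the promoters of all protein-coding genes by mean percentile, Lhx2 stood at percentile 55.1, Lmo4 at 76.4, Ldb1 at 76.5, Ssbp3 at 80.9 and Ssbp2 at 89.7. This ranking included genes with no promoter peak, counted as 0, and Ldb2 among them stood at percentile 38.15. Among genes with a promoter peak alone, the ranks of Lhx2, Lmo4, Ldb1, Ssbp3 and Ssbp2 would be lower, and they were not computed. The genes whose promoter percentiles were most like those of Lhx2 over the 7 libraries were Lrrc73 and Ninj2, with mean absolute differences of 0.406 and 0.437 percentile points. They were Letmd1 and Atp6v0e for Ldb1 (0.262 and 0.27), 1810022K09Rik and Zfp28 for Ssbp2 (0.117 and 0.147), and Ctps and Dpy19l4 for Ssbp3 (0.158 and 0.219). For Ldb2, 8369 other genes tied with it at no promoter peak.

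Ldb2, on the - strand at chr5:44472132-44799680, had no OCR of any class in its window of 387.5 kb in any of the 7 libraries, HPC7-1 with its greater depth included. Windows without an OCR were found for 12.3% of protein-coding genes. The other adaptor, Ldb1, on the - strand at chr19:46031570-46045214, had 16 OCRs in a window of 73.6 kb, 9 of them in all 7 libraries.

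Ldb1 had 3 own-promoter OCRs, all in 7 libraries. A broad OCR of 5875 bp, chr19:46041327-46047201, held the first start, with a percentile of 93.8 ± 1.72 (SD, n = 7). An OCR of 3661 bp at internal starts, chr19:46037135-46040795, was at 94.6 ± 1.15 (SD, n = 7), and the difference was not tested. The third, chr19:46036430-46036932, was at 53.5 ± 7.74 (SD, n = 7). An exonic OCR within the last part of the gene, chr19:46031813-46032483, was in 6 libraries at 20.99 ± 8.51 (SD, n = 6), and at 8.48 with lists of equal length. Its strongest OCR outside the gene and away from other promoters was chr19:46014085-46015199, downstream, with a fold enrichment of 40.5 ± 8.32 and a percentile of 86.8 ± 2.09 (SD, n = 7), where the Lhx2 promoter was at 85.7. A flanking OCR upstream, chr19:46050189-46050965, was at 68.2 ± 5.44 (SD, n = 7). The window also held promoters of the neighbours Nolc1, Pprc1 and Hps6, whose OCRs were at percentiles between 94.2 and 97.1.

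The Ssbp genes had most of the OCRs, 93 of 126, and most of these were intronic. Ssbp2, on the + strand at chr13:91460283-91703429, had 36 OCRs in a window of 303.1 kb, of which 27 were intronic and 17 were in all 7 libraries. Its promoter OCR, chr13:91459771-91462853, had a fold enrichment between 100.9 and 167.4 and had the highest mean over libraries of all OCRs of the 6 genes, although in HPC7-5 it was below the OCR at Nolc1 in the Ldb1 window (147.2 against 158.9). A further own-promoter OCR at an internal start, chr13:91538895-91539282, was weak, at percentile 23.2 ± 15.01 (SD, n = 7), and at 12.2 with lists of equal length. The leading intronic OCRs were chr13:91540420-91541498, at 78.0 ± 4.02, and chr13:91636708-91637251, at 75.6 ± 3.84 (SD, n = 7). An OCR lying wholly within the last exon, chr13:91701758-91702807, was at 82.1 ± 4.84 (SD, n = 7).

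Ssbp3, on the + strand at chr4:106910701-107049694, had 57 OCRs in a window of 199.0 kb, of which 35 were intronic and 23 were in all 7 libraries. At 28.6 OCRs per 100 kb its window stood at percentile 93.4 of protein-coding windows by density, where the median was 10.4. Ldb1 had 21.7 per 100 kb (percentile 82.5), Lhx2 12.2 (55.9), Ssbp2 11.9 (55.0) and Lmo4 7.82 (41.5). Of the 57 OCRs of Ssbp3, 16 were in 1 library, and 36 OCRs were left with lists of equal length, for which the density rank was not computed. Of 6 own-promoter OCRs of Ssbp3 the strongest, chr4:106907041-106913025, was 5985 bp wide at percentile 95.8 ± 0.876. The others were chr4:106940700-106941917 at 67.6 ± 8.81, chr4:106955561-106956859 at 66.4 ± 8.24, chr4:107036939-107037398 at 54.9 ± 12.6 and chr4:106924091-106925279 at 35.1 ± 12.0 (SD, n = 7), and chr4:106922995-106923263, in 4 libraries, at 14.9 ± 12.1 (SD, n = 4). With lists of equal length, chr4:106924091-106925279 was at 20.7 and chr4:106922995-106923263 at 3.5. Its intronic OCR chr4:106987331-106988756 had the highest percentile of all OCRs of the 6 genes away from promoters, 89.3 ± 1.67, with a fold enrichment of 52.0 ± 8.65 (SD, n = 7). That was more than at the Lhx2 promoter in fold enrichment in all 7 libraries. A second, chr4:107015781-107017277, was at 82.8 ± 3.39 (SD, n = 7).

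Lmo4, on the - strand at chr3:144188530-144205220, had 6 OCRs, the fewest after Ldb2, and 3 were in all 7 libraries. A single OCR of 4805 bp, chr3:144201570-144206374, took in its promoter at percentile 94.6 ± 1.15 (SD, n = 7). An exonic OCR, chr3:144200440-144201002, was in 4 libraries at 7.33 ± 6.82, and an intronic one in 4 at 13.6 ± 7.73 (SD, n = 4). With lists of equal length the exonic OCR was at 13.1, its value in HPC7-6. The flanking OCR chr3:144207505-144208005, just upstream, was at 57.2 ± 7.85, and an OCR at a start of the annotated gene Gm43445 inside the body was at 81.5 ± 3.34 (SD, n = 7).

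**Figure D5:**
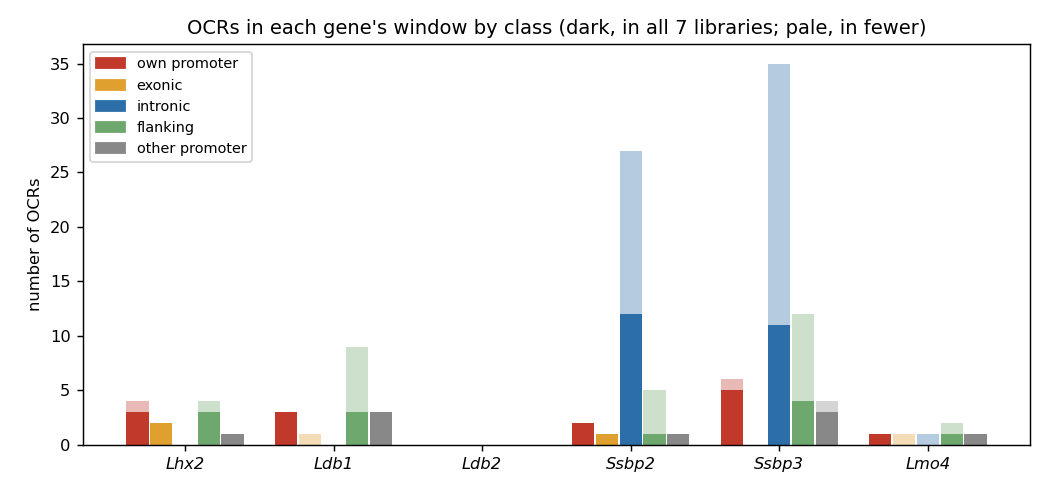
Number of OCRs in the window of each gene by class, with the part found in all 7 libraries dark and the rest pale. Intronic OCRs of Ssbp2 (27) and Ssbp3 (35) are the tallest bars, most of the own-promoter OCRs are dark, and Ldb2 has none.

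Over the 6 genes, 16 OCRs were own promoter, 5 exonic, 63 intronic, 32 flanking and 10 at promoters of other genes. Of the 126, 61 were in all 7 libraries (48.4%), close to the 46.2% of all merged OCRs. The share was 87.5% for own promoters (14 of 16), where it was 66.8% for all merged OCRs with a transcript start within 1 kb. It was 60% for exonic OCRs (3 of 5), 36.5% for intronic OCRs (23 of 63) and 37.5% for flanking OCRs (12 of 32), where it was 41.6% for all merged OCRs with no transcript start within 1 kb. Lhx2 had 81.8% of its OCRs in all 7 libraries (9 of 11), Ldb1 56.2%, Lmo4 50%, Ssbp2 47.2% and Ssbp3 40.4%. Of the 22 OCRs found in 1 library, 20 were in HPC7-1, 16 of the 22 were at Ssbp3, and none was at Lhx2. With lists of equal length 57 of 89 OCRs were in all 7, and without HPC7-1 63 of 115 were in all of the other 6.

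Peaks at the members' own promoters ranked above their exonic, intronic and flanking peaks by 15.9 ± 10.9 percentile points, the mean over libraries of the difference between the 2 medians (SD, n = 7), in 6 of 7 libraries (exact two-sided sign-flip permutation test, p = 0.0312). HPC7-1 had the highest difference, 33.4 points, and HPC7-6 the lowest, -0.444. The difference did not hold with promoters taken as 3 kb on either side of a start, where it was 3.19 points (exact permutation test, p = 0.422), and without 1 library it was between 12.9 and 18.6 points, with p at 0.0625 or, without HPC7-6, 0.0312.

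The strongest intronic or flanking OCR of each gene is shown by the summit and 50 bases on either side, on the + strand of GRCm38.p6, because these are the distal elements that led each locus. Capitals mark matches to GATAA (bound by GATA factors), CAGNTG (E proteins and Tal1), TAATTA (homeodomain proteins), GGAA (ETS factors) or CCACNAG (within the CTCF motif), searched on both strands. The windows are chr2:38376065-38376165, chr19:46014659-46014759, chr13:91541121-91541221, chr4:106987972-106988072 and chr3:144207720-144207820.
Lhx2 downstream OCR: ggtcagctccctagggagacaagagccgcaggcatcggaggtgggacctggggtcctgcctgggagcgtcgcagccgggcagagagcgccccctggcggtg
Ldb1 downstream OCR: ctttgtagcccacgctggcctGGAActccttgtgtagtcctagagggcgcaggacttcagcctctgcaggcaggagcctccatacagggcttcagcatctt
Ssbp2 intronic OCR: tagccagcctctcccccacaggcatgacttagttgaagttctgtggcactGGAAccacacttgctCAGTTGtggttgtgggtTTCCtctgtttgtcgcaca
Ssbp3 intronic OCR: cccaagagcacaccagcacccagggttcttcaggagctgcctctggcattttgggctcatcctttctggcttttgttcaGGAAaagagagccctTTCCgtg
Lmo4 upstream OCR: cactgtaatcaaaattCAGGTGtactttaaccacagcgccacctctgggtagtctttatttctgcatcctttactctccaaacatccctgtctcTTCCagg
The Ssbp2 window held CAGNTG between GGAA matches, the Lmo4 window held CAGNTG and GGAA, and the Lhx2 window held none of the 5. Only exact matches to these letters were marked. A site that departs from them, such as a variant of the CTCF motif, would be missed, so an unmarked window may still hold one. Over all 126 OCRs, GATAA was in 12.7% of the summit windows, CAGNTG in 29.4%, TAATTA in 3.17%, GGAA in 66.7% and CCACNAG in 10.3%. Over all 144931 merged OCRs the shares were 14.7%, 27.9%, 3.09%, 71.1% and 11.5%. The 11 Lhx2 windows had a median GC content of 61.4%, against 50.5% over all merged OCRs, and held CAGNTG in 0 and GGAA in 4.

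The rest of the LIM and Ldb1 complex network was read at 24 further promoters. Of these, 17 had a promoter peak in all 7 libraries and 7 in none, where 55.9% of all protein-coding genes had one in all 7. Among the other LIM-homeodomain genes 5 of 11 had one in all 7 libraries, a share near that of all genes (Lhx1, Lhx3, Lhx6, Lhx9 and Isl2) and 6 in none (Lhx4, Lhx5, Lhx8, Isl1, Lmx1a and Lmx1b). The mean promoter percentile was 59.9 ± 9.38 for Lhx9 and 69.7 ± 6.07 for Lhx6, and Isl2, at 88.8 ± 2.77, was the one of the 5 with a mean above that of Lhx2, a difference that was not tested (SD, n = 7). Among the LIM-only genes, Lmo2, the partner of Tal1 in blood cells, was at 95.8 ± 0.856 and Lmo1 at 79.1 ± 3.27 (SD, n = 7), and Lmo3 had no peak. The known members of the hematopoietic Ldb1 complex all had a peak in 7 libraries: Tal1 at 94.5 ± 0.84, Lyl1 at 99.9 ± 0.0696, Tcf3 at 97.1 ± 0.665, Tcf12 at 86.5 ± 2.27, Gata2 at 89.4 ± 1.25 and Gata1 at 75.3 ± 4.99 (SD, n = 7). So did Cbfa2t3, a corepressor of that complex, at 99.2 ± 0.338, Ssbp4, a further Ssbp paralog, at 99.5 ± 0.296, Runx1 at 95.1 ± 6.28 and Rlim, the ubiquitin ligase of the Ldb adaptors, at 94.4 ± 1.03 (SD, n = 7).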

How the data were processed

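Bulk ATAC-seq was measured in 7 libraries of 1 group. Adapters were removed by the authors using Cutadapt, BWA-mem was used for alignment to mm10, and MACS2 peaks were called per library. Versions and options are not given in the sources used here. The deposited values are a fold enrichment (a ratio of the summit to the background), the -log10 p and the -log10 q of each peak, and the offset of its summit. Within every library 100% of the deposited fold enrichments were whole multiples of 1 step (within 0.01 step), which gave the background and the reads at each summit. Read totals are not in these lists, so precision is given as the SD over libraries. The p-values come from flipping the signs of per-library differences, with culture batches as the replicates, and do not measure a spread.

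Genes were taken from GENCODE M21 and sequences from GRCm38.p6. Promoter meant within 1 kb of a transcript start, overlap meant 1 bp or more, and an OCR took the first class that applied of own promoter, other promoter, exonic, intronic and flanking. Per-library differences were tested by an exact sign-flip permutation over 128 sign patterns, two-sided. OCRs named were every own-promoter and exonic OCR and the 2 intronic or flanking OCRs with the highest mean percentile per gene among those in all 7 libraries, and genes named beside a member were the 2 with the most similar promoter percentiles, which are not reported here for Lmo4. OCRs at starts of other genes, the other 2 flanking OCRs of Lhx2 and the intronic OCR of Lmo4 were added to these once their values had been seen. The members and lists were chosen with earlier results of these data known. The alternatives tried were peaks with -log10 q from 5 upwards, equal list lengths, each library left out, 3 kb promoters, log10 fold enrichment, other windows and other exon sets. Interval counts were checked against bedtools 2.31.1 and the scripts were tested on simulated data. Python, numpy, pandas, pysam and matplotlib were used.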

Additional observations from a re-analysis of the deposited data

Results flagged for a closer look

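Of 39 measures looked at for a library standing apart from the others, 1 had one, and chance alone sets apart about 1 in 20. The OCR in the last exon of Ssbp2 had a percentile of 72.4 in HPC7-6, where the other 6 libraries were between 80.4 and 86.4. The fold enrichment of this OCR was 13.0 in HPC7-6 and between 24.4 and 36.6 in the others. No explanation was tested.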

How the results depend on the processing

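Of 705 values recomputed for 65 results, 651 kept their direction and side of the threshold, stayed within the spread or, for counts, changed by no more than a set ratio. That ratio was wide enough for the fall of the total from 126 to 89 OCRs to be among the 651. The difference between own-promoter and other peaks fell to 3.19 percentile points (exact permutation p = 0.422) with 3 kb promoters, and leaving out 1 library gave 12.9 to 18.6 points, with p above the threshold except without HPC7-6. Leaving out 1 library kept the exonic minus intronic coverage of Lhx2 between 54.4 and 55.5 points. The number of internal exons with peak edges at the exon edges was 2, and it was 1 with a -log10 q of at least 5, 0 with equal list lengths, 0 within 5 bp, 4 within 25 bp, and 0 to 2 without 1 library. Windows of 100 kb on either side gave 206 OCRs, 100 of them in all 7 libraries, with 23 at Lhx2, 30 at Ldb1, 100 at Ssbp3 and 1 at Ldb2, and windows of 10 kb took Ldb1 from 16 to 8. With equal list lengths the Ssbp3 OCRs fell from 57 to 36, and the total from 126 to 89, of which 57 were in all 7 libraries. Percentiles, then taken within the shorter lists, fell from 34.4 to 21.1 over Lhx2 exon 2. The fall was from 20.99 to 8.48 at the exonic OCR of Ldb1. It was from 35.1 to 20.7 and from 14.9 to 3.5 at own-promoter OCRs of Ssbp3. At the weak own-promoter OCR of Ssbp2 it was from 23.2 to 12.2, and at the Lhx2 promoter from 85.7 to 82.5. The exonic OCR of Lmo4 instead rose from 7.33 to 13.1, its value in HPC7-6. With a -log10 q of at least 5, that OCR was at 3.44. The Ldb1 minus Lmo4 difference changed sign without 1 library, between -0.169 and 0.417 points. Ssbp3 above Lmo4 lost its call in 6 of 7 such fits (exact permutation test, adjusted p between 0.0335 and 0.067), while the difference stayed between 0.969 and 1.39 points. With 6 libraries, 1 of them of opposite sign, the test cannot reach the threshold. The lost calls of this pair and of the own-promoter difference thus follow from the smaller number of libraries. Within the libraries of prefix VD and prefix EtOH the Lhx2 exonic minus intronic difference was 55.7 and 54.4 points. No paired analysis was possible between groups because the labels give 1 group, and the differences tested lie within a library. Of 22 single-library OCRs 20 were in HPC7-1, the deepest library.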
